A study of Saccharomyces cerevisiae with 2 samples.

Results

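The lysine biosynthesis genes of Saccharomyces cerevisiae were taken as 9 named genes, LYS1, LYS2, LYS4, LYS5, LYS9, LYS12, LYS14, LYS20 and LYS21, and 7 of them were among the 4685 genes listed in the deposited table. LYS20 and LYS21, the pair of homocitrate synthase genes, are not among the listed genes and have no value here. The table gives, for each gene, the ribosome footprints and the RNA of BY4741 cells, with 1 footprint library and 1 RNA-seq library. BY4741 is a MATa haploid laboratory strain that lacks MET17, LEU2 and URA3 and carries a partial deletion of HIS3. Both libraries came from untreated cells in mid-log growth in YPD, a rich glucose medium. Levels are in RPKM, reads scaled to gene length and library size, and so can be compared between genes. No value has a replicate error, no library depth is known, and no test between genes was possible.

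Fungi make lysine by the alpha-aminoadipate route, which starts from 2-oxoglutarate and acetyl-CoA. Homocitrate synthase opens it, homoaconitase (Lys4) and homoisocitrate dehydrogenase (Lys12) act in mitochondria, and the aminoadipate reductase Lys2 and the saccharopine dehydrogenases Lys9 and Lys1 act in the cytosol. Lys5 attaches the phosphopantetheine group that Lys2 needs. Lys14 is a transcription activator of LYS genes that responds to a pathway intermediate, and Gcn4 activates amino acid synthesis genes in general. Lysine inhibits homocitrate synthase, and rich medium supplies the amino acid. LYS2 is intact in BY4741 and deleted in its MATalpha counterpart strain.

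The bases around each start codon are shown because ribosomes enter the reading frame there. Whether these bases bear on how many footprints a gene carries per RNA was not tested. Each line runs from 12 bases before the start codon, which is in capitals, to 3 bases after it, read 5′ to 3′ on the gene's own strand from the NCBI reference of assembly R64, the build that sacCer3 names.
LYS4 (chrIV:931117-931134, plus strand): tatcgcttcaagATGcta
LYS12 (chrIX:187627-187644, minus strand): gcactcaaaaagATGttt
LYS2 (chrII:473921-473938, minus strand): agttactcactaATGact
LYS9 (chrXIV:715383-715400, minus strand): atatattttaatATGgga
LYS1 (chrIX:420731-420748, minus strand): acaaccgcaaaaATGgct
LYS5 (chrVII:216091-216108, minus strand): aaaaaaccgtggATGgtt
LYS14 (chrIV:512104-512121, minus strand): tttctggcaataATGttc
Yeast start codons often have an A 3 bases upstream. That A was present in 5 of the 7 listed lysine genes (71.4%), against 61.4% of listed protein-coding genes. LYS2 has a C and LYS5 a T at that place. LYS5 was also the only listed member with an ATG in the 50 bases before its start codon, where it has 2, and 17.8% of listed genes have at least 1 there. Where the transcripts begin was not analysed here, so whether those ATGs lie in the mRNA is not known.

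The upstream DNA is shown because some of the members match short patterns taken from the sites known for the activators Lys14 and Gcn4. The 500 bases before each start codon were searched on both strands for TCCNNNGGA, which covers the site known for Lys14 and reads the same on both strands, and for TGACTC, the core of the site known for Gcn4. TCCNNNGGA was found before 5 of the 9 genes (55.6%), against 5.9% of the 6001 nuclear protein-coding genes examined. Lys14 is known as an activator of LYS genes. This difference in share, and that for both motifs together, is therefore not an independent result. In the lines below the match is in capitals.
LYS21 (chrIV:227055-227079, plus strand): gttgaaatTCCGCTGGAaatcgtca
LYS12 (chrIX:187798-187822, minus strand): cactttttTCCCGTGGAaaaatatt
LYS9, farther match (chrXIV:715597-715621, minus strand): atcgaaatTCCGTTGGAaaaattcg
LYS9, nearer match (chrXIV:715535-715559, minus strand): tgagaattTCCAATGGAattatcag
LYS1 (chrIX:420916-420940, minus strand): ttttttttTCCAGCGGAatttggaa
LYS14 (chrIV:512309-512333, minus strand): gaaaaattTCCTCAGGAatttcaaa
In the 5 genes the matches begin 163 to 330 bases before the start codon. TGACTC was found before 4 of the 9 genes (44.4%), LYS12, LYS2, LYS1 and LYS14, against 12.6% of the 6001 genes. It was also found before each of the 8 listed arginine synthesis genes, and before each of the 7 histidine synthesis genes except HIS2. Gcn4 is known to activate amino acid synthesis genes, so this difference in share is not an independent result either. LYS1 has TGACTC at 2 places, both on the other strand and so read as GAGTCA. Both are shown here because LYS1 is the only member with more than 1.
LYS1, farther match (chrIX:420972-420993, minus strand): aagtcgatGAGTCAaaaaagac
LYS1, nearer match (chrIX:420857-420878, minus strand): gcgacaaaGAGTCAtaaagtca
LYS12, LYS1 and LYS14 hold both motifs, as do 1.13% of the 6001 genes, and LYS4, LYS5 and LYS20 hold neither. No match overlapped one of the other motif. TCCNNNGGA leaves its middle bases open, so a match to it need not be the site known for Lys14. A match is only a run of letters, and binding was not measured.

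The mitochondrial enzymes were the first of the pathway with values. LYS12 had 218.7 RPKM of footprints and 275.3 RPKM of RNA, the highest of the 7 listed members in both assays. It ranked 664th in footprints and 432nd in RNA among the 4685 listed genes. LYS12 (YIL094C) lies on chromosome IX, 186517 to 187632 on the minus strand, as a single coding exon of 1116 nt. LYS4, which precedes it in the pathway, had 61.3 RPKM of footprints and 83.2 RPKM of RNA (YDR234W, chromosome IV, 931129 to 933210, a single coding exon of 2082 nt). LYS12 thus exceeded LYS4 by 3.57-fold in footprints and 3.31-fold in RNA, so these neighbours differed almost as much in RNA as in footprints.

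LYS2, the aminoadipate reductase gene and the longest member at 4179 nt (YBR115C, chromosome II, 469748 to 473926, minus strand), had 90.3 RPKM of footprints and 108.3 RPKM of RNA. Per length it was therefore in the middle of the pathway. Summed over its length it held more ribosomes than any other listed member: RPKM times coding length gave 377 RPM of footprints and 453 RPM of RNA, 33.3% and 35.5% of the sums over the 7 genes. LYS5, whose product activates Lys2, was the lowest member in both assays, with 5.09 RPKM of footprints and 17.3 RPKM of RNA (YGL154C, chromosome VII, 215278 to 216096, minus strand, 819 nt). LYS2 exceeded LYS5 by 17.7-fold in footprints and 6.26-fold in RNA. The LYS5 values rest on little sequence, 4.17 RPM of footprints and 14.2 RPM of RNA by the same product, and the table keeps only genes with at least 10 RPM of RNA.

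The saccharopine dehydrogenases end the pathway. LYS9, which forms saccharopine, had 172.6 RPKM of footprints and 139.9 RPKM of RNA (YNR050C, chromosome XIV, 714048 to 715388, minus strand, 1341 nt). LYS1, which releases lysine from saccharopine, had 97.0 RPKM of footprints and 51.5 RPKM of RNA (YIR034C, chromosome IX, 419615 to 420736, minus strand, 1122 nt). LYS9 and LYS1 were the only listed members with more footprints than RNA per unit of library. LYS1 had the least RNA of the 5 listed enzymes of the pathway itself, though it had more footprints than LYS2 and LYS4. Against LYS2 it had 1.07 times the footprints and 0.476 times the RNA.

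LYS14, the activator gene, had 16.0 RPKM of footprints and 34.9 RPKM of RNA (YDR034C, chromosome IV, 509737 to 512109, minus strand, 2373 nt). It stood below each of the 5 listed pathway enzymes in both assays and above LYS5.

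**Figure D1:**
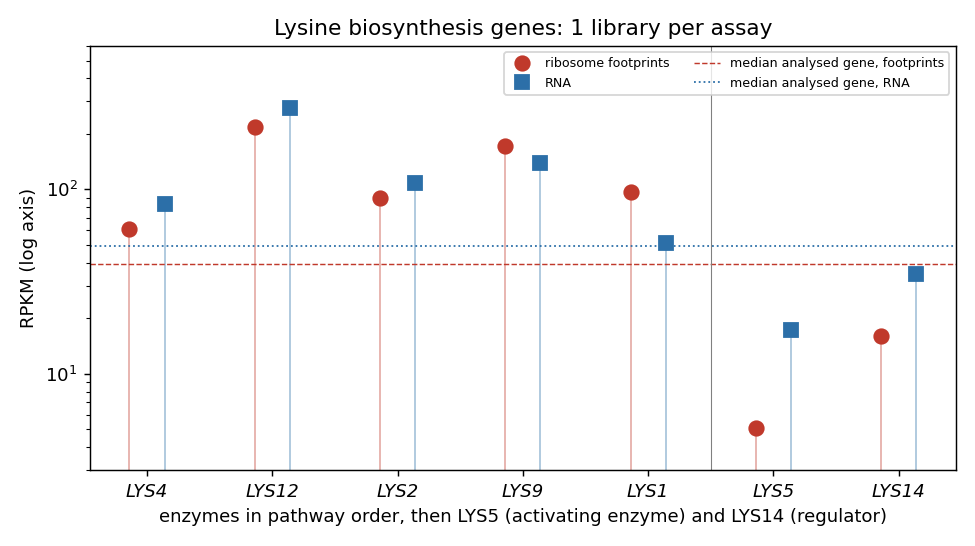
Ribosome footprints (circles) and RNA (squares) of the 7 listed lysine biosynthesis genes, in RPKM on a log axis, 1 library per assay, with the pathway enzymes in order and then LYS5 and LYS14. Dashed and dotted lines mark the median analysed gene (39.4 RPKM of footprints, 49.6 RPKM of RNA). The 5 enzymes lie above both medians, LYS5 and LYS14 lie below both, and LYS9 and LYS1 alone have the circle above the square.

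In footprints the order was LYS12, LYS9, LYS1, LYS2, LYS4, LYS14 and LYS5. In RNA it was LYS12, LYS9, LYS2, LYS4, LYS1, LYS14 and LYS5, so that only LYS1 changed place against the others. With no replicates it cannot be said which neighbours in these orders differ. LYS1 and LYS2 were closest in footprints. Across the 7 genes footprints covered a 43.0-fold range and RNA a 15.9-fold range. Among the 5 pathway enzymes alone the ranges were 3.57-fold in footprints and 5.34-fold in RNA, so the enzymes spread less in footprints than in RNA, while over the 7 genes the footprints spread more. The 7 genes had 0.117% of the footprints and 0.14% of the RNA summed over all listed genes, a ratio of shares of 0.832.

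Ribosome density was taken as log2 of footprint RPKM over RNA RPKM, set to 0 at the median of the 4642 genes whose footprint and RNA values averaged 5 RPKM or more. A density of 1 thus means 2-fold more footprints per RNA than the median gene. All 7 listed members passed that filter. Of them 3 lay above the median gene, against 50% of all analysed genes by construction, and the members' median was -0.047, against 0 for all analysed genes. LYS1 was the only member more than 2-fold above the median gene, where 6.79% of analysed genes lay, and LYS5 the only one more than 2-fold below it, where 13.1% lay. The members lay on both sides of the median gene, from the 6.31st to the 96.5th percentile of density. Their median was -0.42 when densities were centred on total footprints over total RNA, and 0.20 with the adjustment for coding length described further on. Their SD over genes was 0.88, against 0.96 over all analysed genes.

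LYS1 had a density of 1.20, or 2.29 times the median gene, and ranked 164th of 4642. LYS9 followed with 0.59. As measured, the closing enzymes of the pathway were thus the members with the highest densities. LYS2 (0.023), LYS12 (-0.047) and LYS4 (-0.16) lay close to the median gene, at 1.02, 0.968 and 0.897 times its ratio. LYS14 had -0.84, or 0.56 times, and LYS5 had -1.48, or 0.358 times. LYS1 and LYS5 differed by 2.68, a 6.40-fold difference in footprints per RNA. When densities were centred on total footprints over total RNA, LYS1 stood at 0.82, no longer more than 2-fold above the centre, and LYS14 at -1.21, more than 2-fold below it.

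**Figure D2:**
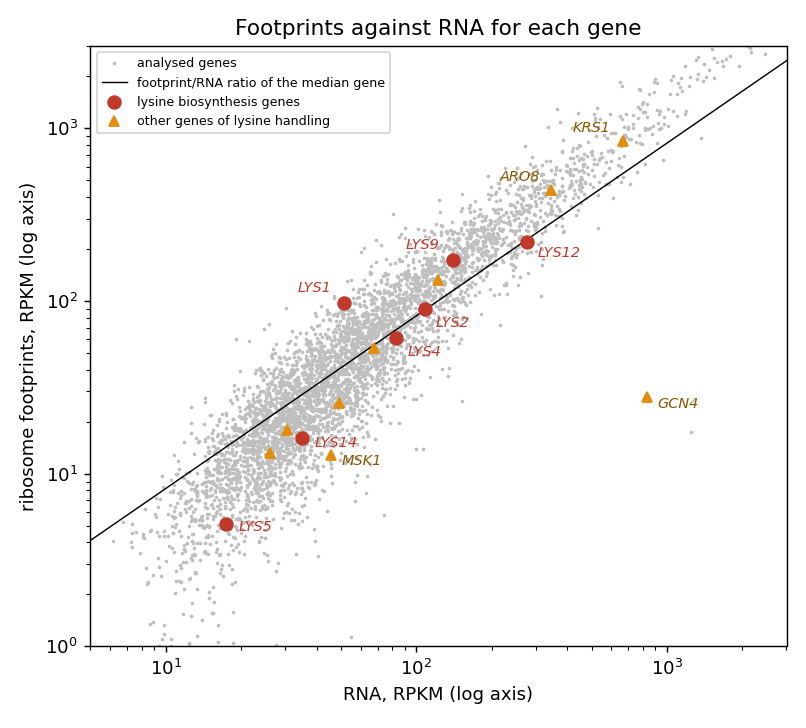
Ribosome footprints against RNA for each analysed gene, both in RPKM on log axes, with the lysine biosynthesis genes as circles, other genes of lysine handling as triangles and the ratio of the median gene as a line. The axes leave out 107 analysed genes. LYS1 and LYS9 lie above the line, LYS2, LYS12 and LYS4 close to it and LYS14 and LYS5 below it, and GCN4 lies far below it at 27.7 RPKM of footprints and 830 RPKM of RNA.

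Density falls with coding length over all genes, so each member was also set against genes of its size. LYS1 and LYS12 are nearly the same length, 1122 and 1116 nt, and fall in the same decile of analysed genes (1104 to 1308 nt), whose median density was 0.09. LYS1 lay well above that median and LYS12 a little below it, and LYS12 minus LYS1 came to -1.24. LYS2, in the decile of longest genes, had 0.023 where the median was -0.84. LYS5, in a decile of shorter genes (723 to 924 nt), had -1.48 where the median was 0.34. The shortest listed member thus had the lowest density and the longest stood level with the median gene.

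With a straight line for log2 coding length removed over all analysed genes, 4 of the 7 members lay above the median gene, against 50% of analysed genes. LYS1 then had 1.11 (98.9th percentile), LYS2 0.89 (96.3rd), LYS9 0.63 (89.1st) and LYS4 0.20 (64.4th). LYS12 had -0.14 (40.2nd percentile), LYS14 -0.38 (26.4th) and LYS5 -1.79 (2.61st). All 3 enzymes of the cytosolic steps therefore stood higher for their length than the mitochondrial pair, with 1 library per assay and no error on any value. Across the 7 members density and coding length had a Spearman rho of 0.14, against -0.62 over all analysed genes, and footprints and RNA one of 0.89. These are descriptions over 7 genes that share both libraries.

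**Figure D3:**
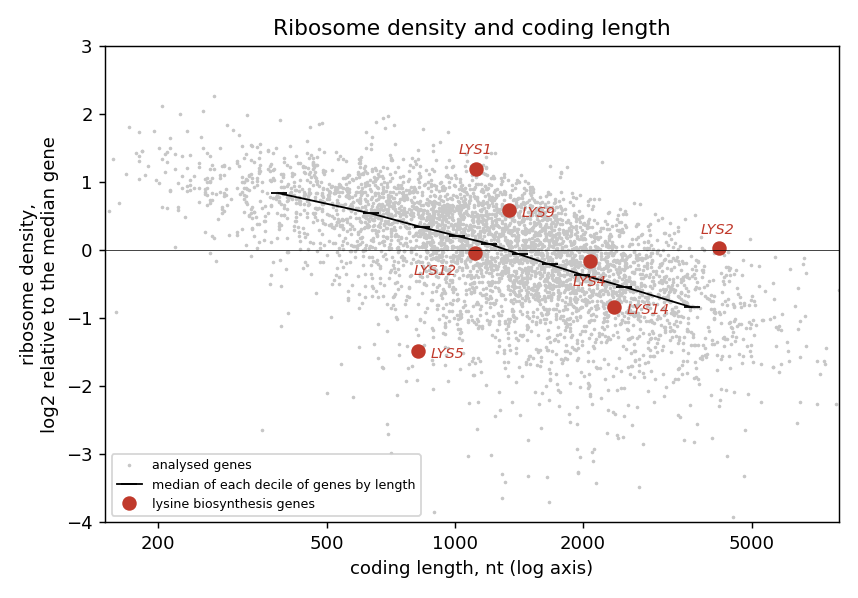
Ribosome density (log2, relative to the median gene) against coding length in nt on a log axis for the analysed genes, with the lysine biosynthesis genes as circles and the median of each decile of genes by length as a line. The axes leave out 45 genes. LYS1 (1.20) and LYS2 (0.023) lie far above the line at their lengths, LYS5 (-1.48) far below it and LYS12 (-0.047) close to it.

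Codon use, like density, put LYS14 and LYS5 lowest, but it put the 5 pathway enzymes in a different order. Codon adaptation, which is 1 when each codon is the one most used in cytosolic ribosomal protein genes, was 0.418 for LYS9, 0.387 for LYS12, 0.287 for LYS2, 0.281 for LYS1, 0.257 for LYS4, 0.19 for LYS14 and 0.187 for LYS5. The 5 enzymes were between the 80.0th and 94.6th percentile of listed genes, and LYS14 and LYS5 at the 42.4th and 39.3rd. LYS12 combined high adaptation with a density at the median gene. It was low for its RNA level, since the decile of genes with the most RNA had a median density of 0.71. Adjusted for coding length and RNA, LYS12 had -0.54 (18.1st percentile). LYS1 combined the highest density with the fourth highest adaptation. The Spearman rho of density with codon adaptation was 0.75 across the 7 members and 0.38 across all analysed genes. With RNA, density had a rho of 0.54 across the members and 0.53 across all analysed genes.

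Genes that feed, transport or use lysine were set beside the members. All 9 genes of this list were listed, and 3 lay above the median gene, none more than 2-fold above it, and 2 more than 2-fold below it, with a median density of -0.48. The step between Lys12 and Lys2 was represented by ARO8, an aminotransferase that forms aminoadipate. ARO8, which also acts in aromatic amino acid metabolism, had 439.8 RPKM of footprints and 343.3 RPKM of RNA, above all 7 LYS genes, and a density of 0.64. Its relative ARO9 had 53.1 RPKM of footprints, 67.5 RPKM of RNA and a density of -0.061.

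The mitochondrial carriers of oxodicarboxylates, which can move the 2-oxoadipate made by the mitochondrial steps, had densities below the median gene. ODC2 had 25.6 RPKM of footprints and 49.1 RPKM of RNA and ODC1 had 13.1 and 26.1 RPKM, with densities of -0.65 and -0.71. The lysine permease gene LYP1 had 132.6 RPKM of footprints and 121.7 RPKM of RNA and a density of 0.41. Among the listed LYS genes, only LYS12 and LYS9 had more of either.

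As measured, the regulators MKS1, GCN4 and LYS14 had lower densities than each of the 5 listed pathway enzymes. With density adjusted for both coding length and RNA, LYS12 (-0.54) fell below LYS14 (-0.29) and MKS1 (-0.069). The other listed pathway enzymes stayed above the regulators. MKS1, also known as LYS80, whose loss raises lysine synthesis, had 17.9 RPKM of footprints and 30.3 RPKM of RNA and a density of -0.48, near the levels of LYS14. GCN4, whose leader carries inhibitory upstream reading frames, had a density of -4.62 on abundant RNA. The lysyl-tRNA synthetases, which consume lysine, stood apart from each other: the cytosolic enzyme gene KRS1 had 845 RPKM of footprints and 670 RPKM of RNA and a density of 0.62, and the mitochondrial one, MSK1, had 12.9 and 45.5 RPKM and -1.53.

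The synthesis genes of the other basic amino acids gave a scale for these values, with no test of the differences. The members' median density of -0.047 lay between that of the 8 listed arginine synthesis genes (-0.40, from ARG8 at -1.41 to ARG1 at 0.81) and that of the 7 histidine synthesis genes (0.66, from HIS2 at -0.29 to HIS6 at 0.85). In median level, the 7 lysine genes had 90.3 RPKM of footprints and 83.2 RPKM of RNA. The arginine genes had 39.3 and 47.8 RPKM and the histidine genes 107.5 and 82.9 RPKM. Median RNA was thus alike in the lysine and histidine lists. None of the 15 arginine and histidine genes reached the density of LYS1 and none was as low as LYS5, though ARG8 came close to LYS5. Few of all analysed genes lie beyond either: LYS1 was at the 96.5th percentile of density and LYS5 at the 6.31st. HIS3 is deleted in part in this strain, so its density of 0.80 may not compare with that of an intact gene. That value is counted in the histidine median.

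**Figure D4:**
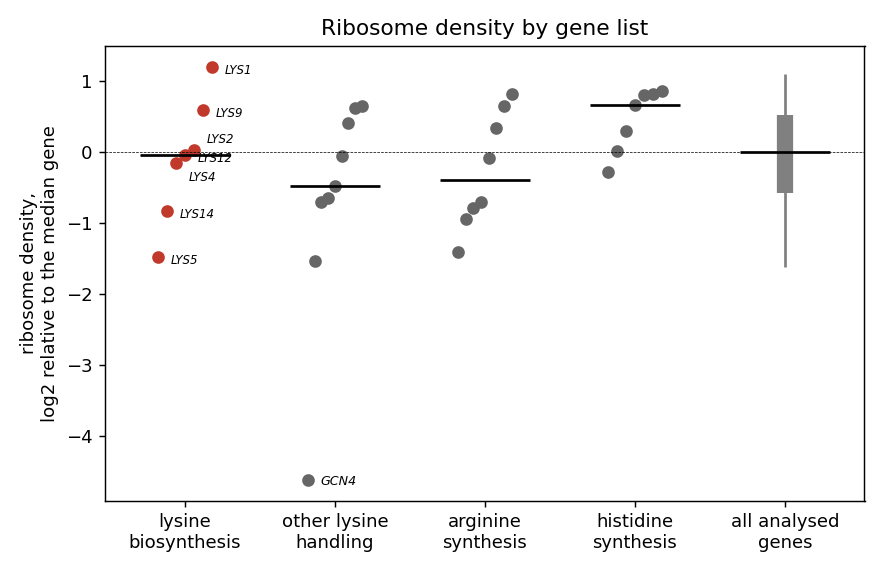
Ribosome density (log2, relative to the median gene) of each listed gene in 4 lists, with black lines at list medians; at the right the thin bar spans the 5th to 95th percentile of analysed genes (-1.63 to 1.09) and the thick bar the 25th to 75th. The lysine genes run from LYS5 at -1.48 to LYS1 at 1.20, and LYS1 lies above the 95th percentile.

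No repeated stretch was found in the 7 listed members. None of their windows of 28 bases, about a footprint's length, occurs a second time in the reference genome, and none of the 7 overlaps another annotated protein-coding gene. LYS20 (YDL182W) and LYS21 (YDL131W) (chromosome IV, 133437 to 134723 and 227393 to 228715, plus strand) are identical at 88.2% of aligned coding positions, and 48.6% and 47.2% of their windows occur more than once. How reads that match several genes were treated is not given in the sources used here. Why both genes have no row was not tested.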

How the data were processed

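Ribosome footprints and RNA were measured in 1 library each. Per the file headers, the authors' RPKM values are given for genes with at least 10 RPM of RNA and more than 0 RPM of footprints, together with the deposited log2 ratio of both, which equalled the log2 ratio of the RPKM columns to within 1.63e-09. A deposited note says that reads begin with 8 random nucleotides to be stripped. The submitters' processing notes name sacCer3; no aligner or counting rule is given in the sources used here. The RNA was cytoplasmically enriched and depleted of ribosomal RNA, per the labels.

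All 4685 identifiers matched the annotation of assembly R64. Density used no pseudocount. Codon weights came from 137 cytosolic ribosomal protein genes, each codon's count raised by 0.5. The length adjustment was a straight line of density on log2 coding length (slope -0.50). Tools were Python 3.11.15, pandas 2.3.3, numpy 2.4.6 and Biopython 1.88. RPKM cannot be turned into reads, so no counting interval is given. The members and lists were chosen with earlier results of these data known. All members and all 9 genes of the lysine handling list are named, with the extremes of the arginine and histidine lists. The value of 1 further gene of lysine handling is not reported here, and that list's counts and median leave it out.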

Additional observations from a re-analysis of the deposited data

How the results depend on the processing

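LYS1 and LYS9 stayed above the centre, and LYS12, LYS14 and LYS5 below it, under each setting that gave them a value. The centre is the median gene, except where densities were centred on total footprints over total RNA. LYS1 ran from 0.82 to 1.21, LYS9 from 0.21 to 0.63 and LYS12 from -0.54 to -0.036. LYS14 ran from -1.21 to -0.29 and LYS5 from -1.86 to -1.31. LYS2 (-0.35 to 0.89) and LYS4 (-0.53 to 0.20) took both signs. Between 2 and 4 members lay above the centre. The members' median of -0.047 was -0.054 with a pseudocount of 1 RPKM, -0.036 with no filter, -0.19 when the filter was raised to a mean of 20 RPKM, where LYS5 drops out, and -0.42 when centred on total footprints over total RNA. It turned positive with adjustment for coding length (0.20) or for coding length and RNA (0.062), and without LYS14 and LYS5 (0.023). The centring on totals moves each gene by the same 0.38. The ratio of shares was 0.706 without weighting by coding length. Leaving out LYS20 and LYS21 was not run, since neither has a value. No paired analysis was possible because each assay has 1 library. Depth is unknown, so the error of low values such as those of LYS5 cannot be given.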

Other observations

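In lysine codons, 3 of the 7 listed lysine genes lay above the median listed gene. They made up 7.97% of the codons of LYS14, 7.65% of LYS4, 7.62% of LYS9, 6.97% of LYS1, 6.74% of LYS12, 6.18% of LYS2 and 5.51% of LYS5, against a median of 7.39% in listed genes. The choice between the 2 lysine codons varied more. AAG, the lysine codon favoured in ribosomal protein genes, made up 70.6% of lysine codons in LYS9 and 64% in LYS12. It was 45.3% in LYS4, 41.9% in LYS2, 36.5% in LYS14, 33.3% in LYS5 (5 of 15) and 30.8% in LYS1 (8 of 26). The median over listed genes was 41.4%. LYS1 and LYS5, the members with the highest and the lowest ribosome density, thus had the lowest shares of AAG of the 7.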
